A study of Chlamydomonas reinhardtii with 12 samples.

Results

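The genotype by light interaction asks, gene by gene, whether the change in transcript level brought by high light differed between wild-type Chlamydomonas reinhardtii and vip1-1, a strain deficient in inositol pyrophosphates. It was computed as the log2 change in vip1-1 minus the log2 change in wild type, so a positive value means that a transcript ended relatively higher in vip1-1 than the wild-type response would give. It covered 12575 of the 17693 genes in the deposited table, namely those with an FPKM (fragments scaled to transcript length and to the library's mapped fragments) of 1 or more in 3 or more of the 12 libraries. Poly(A) RNA was sequenced from 4 groups of 3 biological replicates: wild-type control, wild-type high light, vip1-1 control and vip1-1 high light. All cells carried the strain label CC-1690 and were grown at 25 ºC in liquid TAP, a medium that supplies acetate. Light was 50 µmol m-2 s-1 for control cells and 1500 µmol m-2 s-1 for high light cells, and the sources used here do not give how long the high light lasted. The labels name 1 mutant strain and no complemented line, so a strain effect cannot be told apart from other differences between these strains, and they do not say whether replicate cultures were grown separately.

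Inositol pyrophosphates are inositol phosphates that carry a diphosphate group, made in part by kinases of the VIP family. In plants and fungi they are known as signals of cellular phosphate status that bind SPX domains, and in this alga they have been linked to nutrient and carbon metabolism. High light delivers more excitation energy than photosynthesis can use, and algae respond by adjusting light harvesting, photoprotection and metabolism, largely through nuclear transcripts. The reference table used here pairs gene identifiers with loci and holds no gene symbols or product names, so genes are given by identifier, without functions, and the gene disrupted in vip1-1 was not looked up.

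A difference in light response between wild type and vip1-1 was called in 1095 genes, 8.71% of those tested (limma, Benjamini-Hochberg adjusted p under 0.05). Of these, 480 (3.82% of tested genes) had a positive and 615 (4.89%) a negative interaction. The positive interactions ran from 0.50 to 5.19 on the log2(FPKM + 1) scale with a median of 1.12, and the negative ones from -0.50 to -4.72 with a median of -1.05. Over all tested genes the median standard error was 0.27, the median interaction 0.00 and the median absolute interaction 0.38. The number of calls depended on the libraries used, in fits that each had 1 library fewer. It was 497 to 631 when any 1 control library was left out. Without wild-type high light replicates 1, 2 and 3 it was 531, 1866 and 1039. Without those of vip1-1 high light it was 1184, 700 and 1545. Of the 1095 genes, 412 (189 positive, 223 negative) were called in the same direction in all 12 fits that each left out 1 library.

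**Figure D1:**
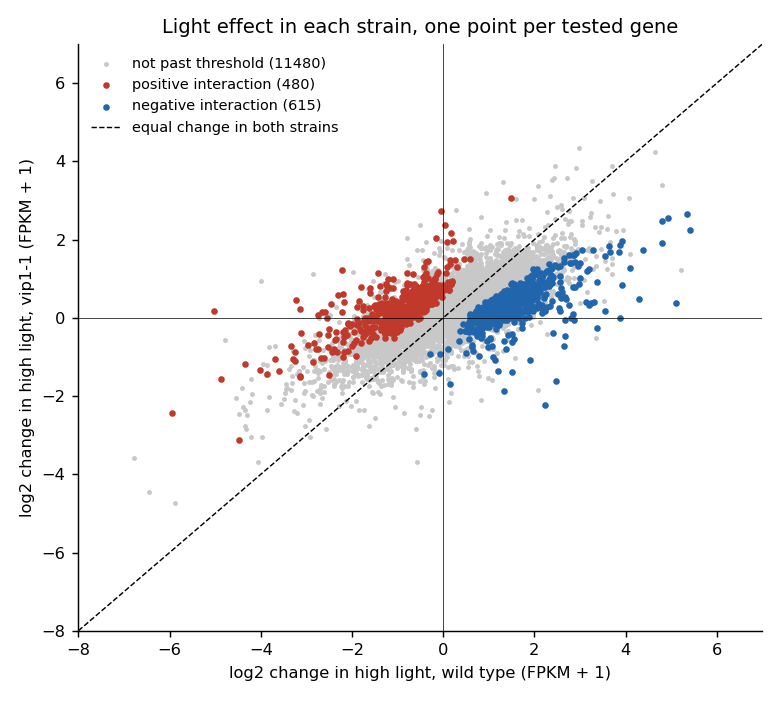
Log2 change in high light on the log2(FPKM + 1) scale in wild type (horizontal axis) and in vip1-1 (vertical axis), 1 point for each of 12575 tested genes. The 480 genes with a positive interaction lie above the line of equal change and mainly where the wild type fell, and the 615 genes with a negative interaction lie below it and mainly where the wild type rose.

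Most genes with a positive interaction fell in the wild type in high light. Of the 480, 275 fell in the wild type and did not pass the threshold in vip1-1, 66 fell in the wild type and rose in vip1-1, and 39 fell in both strains. A further 97 rose in vip1-1 and did not pass the threshold in the wild type, and 3 rose in both. As background, the light effect passed the threshold in 58.4% of all tested genes in the wild type and in 41.5% in vip1-1. By sign alone, 315 of the 480 moved in opposite directions, 137 moved the same way with a smaller change in vip1-1, and 25 moved the same way with a larger change in vip1-1. The remaining 3 had a change of exactly 0 in 1 strain. Over all tested genes, 14.1% fell in value in the wild type and gained in vip1-1, a share that the choice of positive interactions raises by construction. Leaving out 1 library gave 132 to 417 genes in place of the 315 and 64 to 274 in place of the 137. By calls, it gave 28 to 100 in place of the 66, 37 to 148 in place of the 97 and 12 to 129 in place of the 39.

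Most genes with a negative interaction rose in the wild type. Of the 615, 330 rose in the wild type and did not pass the threshold in vip1-1, 258 rose in both strains, and 20 rose in the wild type and fell in vip1-1. Another 6 fell in vip1-1 without passing the threshold in the wild type, and 1 fell in both strains. By sign, 497 of the 615 moved the same way with a smaller change in vip1-1, 109 moved in opposite directions, 4 moved the same way with a larger change in vip1-1, and 5 had a change of exactly 0 in 1 strain. Over all tested genes, 55% moved the same way with a smaller change in vip1-1, and 5.27% gained in the wild type and lost in vip1-1. Leaving out 1 library gave 202 to 966 genes in place of the 497 and 56 to 164 in place of the 109.

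The median light effect of all tested genes was 0.39 in the wild type and 0.38 in vip1-1, so the calls of rise and fall depend on the scaling. Of all light calls, 76.5% were rises in the wild type and 90.2% in vip1-1, against 46.5% and 39.2% after each library was centred on its median. With this centring, 338 of 457 positive genes fell in the wild type without passing the threshold in vip1-1, and 503 of 679 negative genes rose in the wild type without passing it in vip1-1. The other classes moved in either direction. Genes that fell in the wild type and rose in vip1-1 numbered 11 after centring, genes raised in vip1-1 without a wild-type call 26, and genes raised in both strains with a negative interaction 88. Genes with a positive interaction that fell in both strains numbered 77 after centring. Among negative genes, 44 fell in vip1-1 without a wild-type call and 34 rose in the wild type and fell in vip1-1. The counts by sign moved too: 180 positive and 342 negative genes changed in opposite directions after centring. Leaving out 1 library gave 122 (without wild-type control replicate 2) to 391 genes (without vip1-1 high light replicate 3) in place of the 275. In place of the 330 it gave 131 genes when replicate 1 of wild-type high light was left out and up to 542 without replicate 3 of vip1-1 high light. In place of the 258 raised in both strains it gave 75 genes without replicate 1 of the vip1-1 controls and up to 617 without replicate 2 of wild-type high light. In that last fit, and with array weights, the order of these classes turned: 617 genes rose in both strains against 481 that rose in the wild type without a vip1-1 call, and 529 against 327 with array weights.

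**Figure D2:**
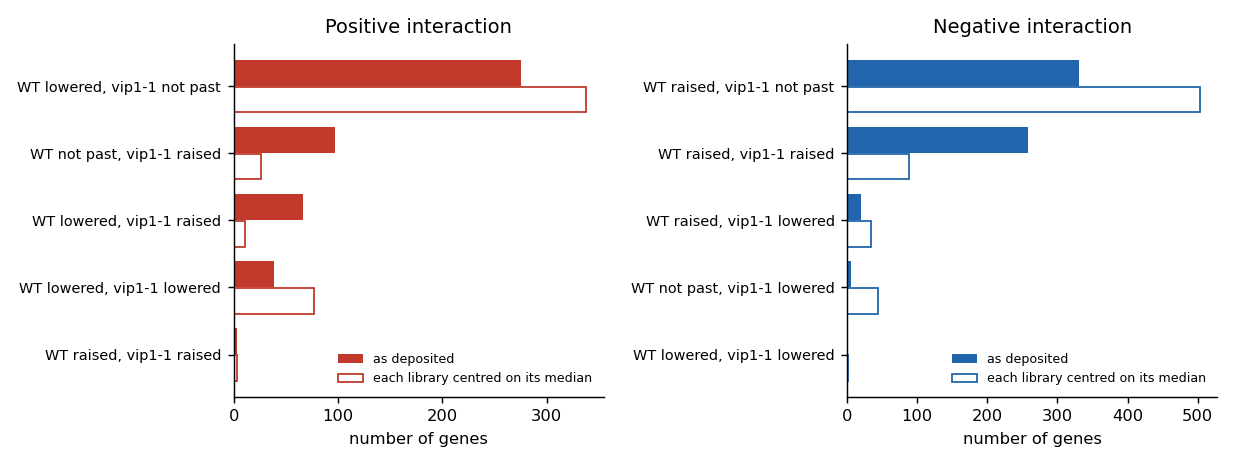
Number of genes with a positive (left) or negative (right) interaction by the light call in each strain (limma, adjusted p under 0.05), as deposited (filled bars) and with each library centred on its median (open bars). Wild-type change without a vip1-1 call is the most frequent class on each side under both scalings shown (275 and 338 genes on the left, 330 and 503 on the right; the order on the right turns without wild-type high light replicate 2 and with array weights), while classes with a rise in vip1-1 are smaller after centring, apart from the 3 positive genes raised in both strains.

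The median shift of each set was followed library by library. Relative to the mean of the wild-type controls, the median positive gene stood at -0.88, -0.88 and -0.80 in wild-type high light replicates 1, 2 and 3, while the median negative gene stood at 1.46, 1.35 and 1.40 and the median of all tested genes at 0.41, 0.26 and 0.51. In vip1-1 high light the median positive gene stood at 0.26, 0.38 and 0.14 above the vip1-1 control mean and the median negative gene at 0.26, 0.34 and 0.44. The median of all tested genes was 0.26, 0.44 and 0.41 in the same 3 libraries. Relative to the median of all tested genes in the same library, the positive set stood at -1.29, -1.14 and -1.31 in the wild type and at 0.01, -0.05 and -0.27 in vip1-1. The negative set stood at 1.05, 1.09 and 0.88 and at 0.00, -0.09 and 0.03. The sets thus lay on opposite sides of the median gene in every wild-type high light library, with mixed signs in vip1-1. These medians describe genes chosen by the same contrast and were not tested.

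**Figure D3:**
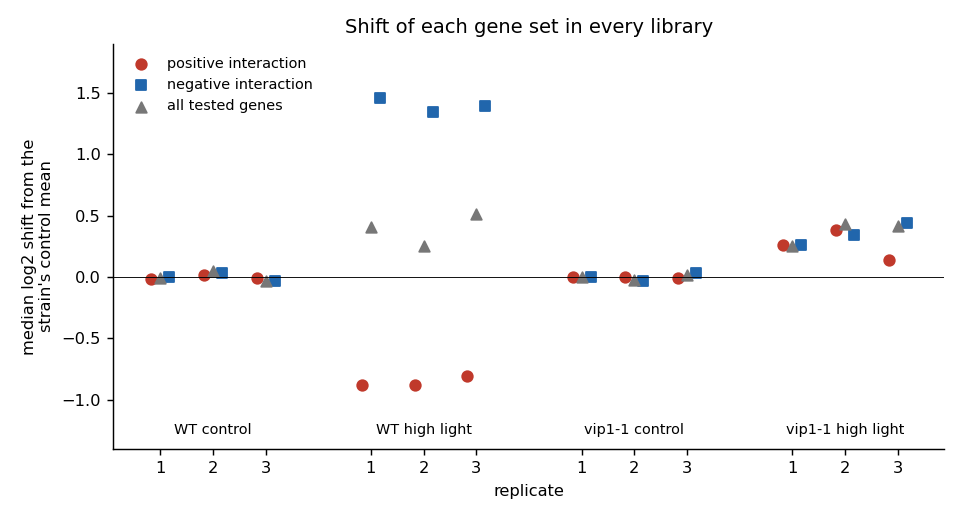
Median log2 shift of each gene set in every library from the mean of that strain's control libraries (vertical axis, log2(FPKM + 1)), by group and replicate (horizontal axis). In the wild-type high light libraries the negative set lies at 1.35 to 1.46 and the positive set at -0.88 to -0.80, and in the vip1-1 high light libraries all sets lie between 0.14 and 0.44.

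The shifts of single libraries also separated the strains in every called gene. In all 480 positive genes each of the 3 vip1-1 high light libraries lay above each of the 3 wild-type ones, relative to its own control mean, and in all 615 negative genes each lay below. Over all tested genes such a separation was present in 17.2% with vip1-1 above and in 18.5% with vip1-1 below. Because the calls use the same values, the count says nothing beyond the calls themselves.

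The levels of the called genes show where the strains parted. The 480 positive genes held 7.58% ± 0.28 (SD, n = 3) of the FPKM total in the wild type under control light and 2.94% ± 0.20 under high light. The corresponding vip1-1 shares were 6.85% ± 0.045 and 6.25% ± 0.27. The 615 negative genes held 1.80% ± 0.043 and 5.18% ± 0.22 in the wild type, and 2.58% ± 0.052 and 2.81% ± 0.26 in vip1-1. The wild-type share thus changed more with light for each set. The choice of genes fixes the sign of the difference between the strains' changes, but not which strain changed more. Over all tested genes, 66% had the smaller change in vip1-1. The shares come from the values used for the calls and were not tested.

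The strain differences in each light level place these genes in another way. Strain differences passed the threshold in 32.4% of tested genes in control light and in 46.4% in high light. Among the 480 positive genes, 239 did not pass it in control light and were higher in vip1-1 in high light. Another 138 were lower in vip1-1 in control light and did not pass the threshold in high light, and 57 were lower in control light and higher in high light. The other 32 and 14 were higher in both light levels and lower in both.

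Among the 615 negative genes, 361 passed no threshold in control light and were lower in vip1-1 in high light, and 115 were lower in both light levels. In 83 genes vip1-1 was higher in control light and the difference did not pass in high light, in 48 vip1-1 was higher in control and lower in high light, and 8 were higher in both. After median centring the 361 became 402 and the 239 became 272, whereas the 138 became 76, the 57 became 30, the 32 became 62, the 115 became 45, the 83 became 153 and the 8 became 18. Without wild-type control replicate 2 the 138 became 33, the 115 became 22 and the 239 became 130, and without wild-type high light replicate 1 the 361 became 141.

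Individual genes illustrate these patterns. By the rule for naming genes, the 3 with the largest interaction of each sign among called genes with a mean FPKM of at least 10 in some group are given first. Cre05.g233900_4532.v6.1, with the largest positive interaction, had FPKM values of 34.4, 40.7 and 40.8 in wild-type control. It was listed at 0 in wild-type high light replicates 1 and 2 and stood at 0.78 in replicate 3. In vip1-1 it was at 86.8, 94.7 and 90.7 in control and at 123, 121 and 70.7 in high light. The transcript was almost absent from the wild type under high light and present in all 6 vip1-1 libraries, with no overlap between the strains in either light level. Its interaction was 5.19 (SE 0.36, limma adjusted p 0.000117), and its light effect in vip1-1 did not pass the threshold (log2 change 0.17, limma adjusted p 0.617).

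Cre06.g309000_4532.v6.1 stood at 317, 348 and 324 FPKM in wild-type control and fell to 47.8, 36.1 and 23.5 under high light. The vip1-1 controls held 193, 173 and 176 and the vip1-1 high light libraries 250, 286 and 217. The order of the strains thus turned over: vip1-1 was lower in all 3 control libraries and higher in all 3 high light libraries (interaction 3.69, SE 0.30, limma adjusted p 0.00018). The strain difference passed the threshold in each light level, with log2 differences of -0.86 and 2.82.

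Cre12.g546600_4532.v6.1 fell in both strains, further in the wild type. Its wild-type FPKM went from 286, 400 and 246 to 2.15, 6.67 and 3.94, and its vip1-1 FPKM from 204, 296 and 228 to 139, 33.1 and 17.2. Among the vip1-1 high light libraries replicate 1 lay far above the other two, and all lay above the wild-type ones (interaction 3.51, SE 0.86, limma adjusted p 0.0328). It was called in 3 of the 12 fits without a library, and the limma adjusted p over all alternatives ran from 0.00749 to 0.0855.

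Among negative interactions, Cre12.g505050_4532.v6.1 was listed at 0 in wild-type control replicate 1 and stood at 2.81 and 2.07 FPKM in replicates 2 and 3. It reached 69.7, 115 and 56.6 in wild-type high light. The vip1-1 controls held 2.48, 2.66 and 3.26. Under high light vip1-1 replicates 1 and 2 held 7.94 and 12.4, with replicate 3 listed at 0. Induction was large in the wild type and did not pass the threshold in vip1-1 (interaction -4.72, SE 1.18, limma adjusted p 0.034), but the interaction was called in 5 of the 12 fits without a library, with limma adjusted p from 0.00715 to 0.118 over all alternatives.

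A pair of genes was already high in vip1-1 control and fell there while rising in the wild type. Cre17.g802031_4532.v6.1 went from 7.07, 4.74 and 12.3 FPKM to 27.3, 89.3 and 24.0 in the wild type and from 625, 555 and 724 to 128, 132 and 144 in vip1-1. Its interaction was -4.45 (SE 0.62, limma adjusted p 0.00372), with vip1-1 above the wild type in each light level. Cre06.g282800_4532.v6.1 was at 19.7, 18.8 and 27.4 in wild-type control and 112, 332 and 51.5 in wild-type high light, and went from 530, 547 and 439 in vip1-1 control to 168, 200 and 127 in high light (interaction -4.09, SE 0.72, limma adjusted p 0.00931). For the latter the strains overlapped in high light (limma adjusted p 0.568), after a control difference of 4.48.

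**Figure D4:**
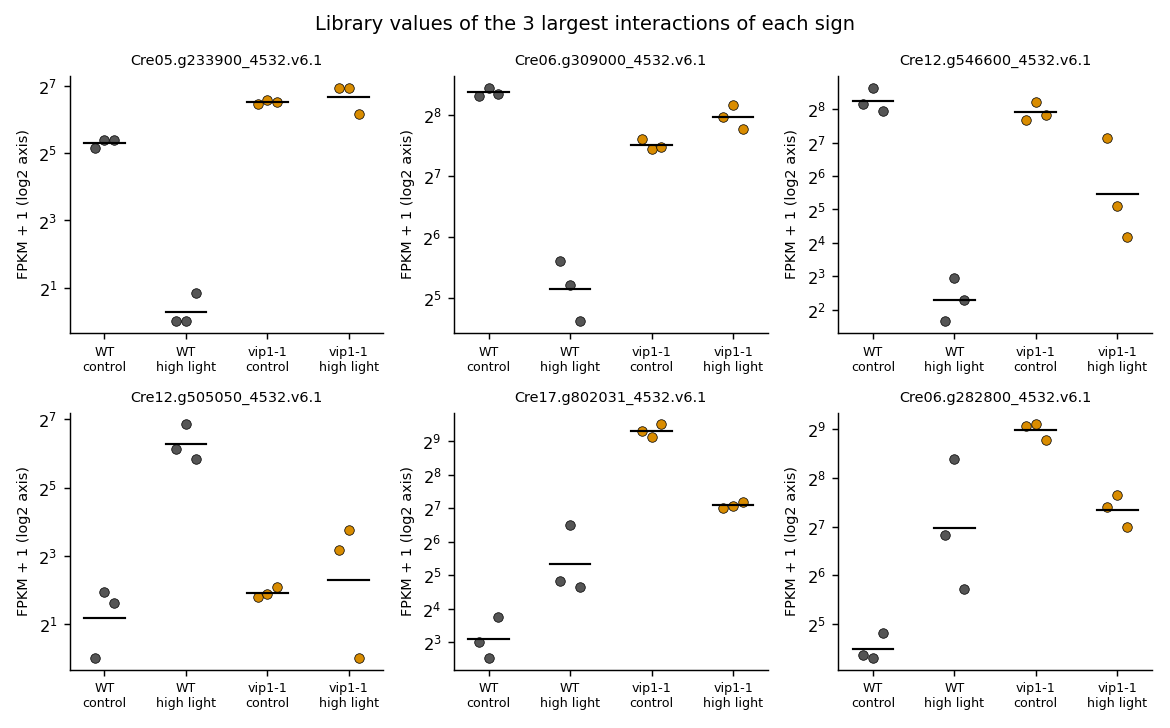
FPKM + 1 on a log2 axis in each of the 12 libraries for the 3 genes with the largest positive (top row) and negative (bottom row) interactions, with wild type in grey, vip1-1 in orange and bars at the mean of log2(FPKM + 1). Cre05.g233900_4532.v6.1 drops to 0.78 or a listed 0 in wild-type high light only, and Cre17.g802031_4532.v6.1 moves in opposite directions in the strains.

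The next examples were chosen after their values were seen, as the largest interaction of a class among genes called in all 12 fits without a library. Cre12.g492650_4532.v6.1 rose only in vip1-1, from 12.5, 15.3 and 11.7 FPKM to 67.2, 127 and 92.2. In the wild type it stood at 12.7, 11.2 and 18.4 in control and 11.8, 8.75 and 22.4 in high light, where its light effect of -0.05 did not pass the threshold (interaction 2.78, SE 0.46, limma adjusted p 0.00764). The 3 vip1-1 high light libraries lay above all others.

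Cre02.g088551_4532.v6.1 moved in opposite directions, and each light effect passed the threshold. It went from 6.48, 6.79 and 6.28 FPKM to 0.66, 0.32 and 0.89 in the wild type and from 4.80, 4.02 and 4.12 to 11.8, 12.1 and 10.4 in vip1-1, with no overlap between any groups (interaction 3.45, SE 0.20, limma adjusted p 2.67e-05). Cre07.g335200_4532.v6.1 showed convergence. Its values of 246, 221 and 279 in wild-type control were well above the 49.0, 49.1 and 39.7 of vip1-1 control, while in high light the strains overlapped, at 19.4, 9.84 and 21.2 against 12.2, 20.2 and 17.3 (interaction 2.44, SE 0.37, limma adjusted p 0.00564).

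Cre02.g093750_4532.v6.1 rose in both strains and more so in the wild type. It went from 10.8, 10.5 and 7.80 FPKM to 318, 302 and 267 in the wild type and from 14.4, 17.4 and 16.4 to 46.5, 61.0 and 86.8 in vip1-1 (interaction -2.90, SE 0.29, limma adjusted p 0.0009). Cre16.g650000_4532.v6.1 was near 1 FPKM in all 6 control libraries. It reached 43.5, 13.5 and 40.1 in wild-type high light, against 3.33, 1.47 and 4.06 in vip1-1 high light (interaction -3.08, SE 0.55, limma adjusted p 0.00966). Its light effect in vip1-1 did not pass the threshold (limma adjusted p 0.103).

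Genes were also grouped by the average of the light effects in wild type and vip1-1, a contrast other than the interaction but computed from the same libraries. Among the 518 genes with a mean log2 effect between -2 and -1, the median change was -1.72 for wild type and -0.94 for vip1-1 (54.9% of the former), and 85.9% of these genes had the smaller change in vip1-1, against 66% of all tested genes. The 85 genes between -3 and -2 had medians of -3.03 and -1.66, or 54.8%. Among the 1466 genes with a mean effect between 1 and 2 the medians were 1.52 and 1.00, or 66.1%, and for the 131 genes between 2 and 3 they were 2.79 and 1.76, or 63.1%. The response in vip1-1 was thus smaller at the median for lowered and raised genes alike, outside the group from 0 to 0.5. With each library centred on the median of its tested genes, which changes the genes each group holds, the vip1-1 median lay nearer 0 in all 10 groups. The 1086 genes between -2 and -1 then had medians of -1.64 and -1.03 (63.1%) and a median interaction of 0.64, and the 494 genes between 1 and 2 medians of 1.64 and 0.92 (56.3%). After centring, 71.1% of all tested genes had the smaller change in vip1-1.

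Single libraries set how much smaller it was. For the genes between -2 and -1 the median interaction was 0.40 rather than 0.80 when replicate 2 of vip1-1 high light was left out, and without replicate 1 of that group the median of the genes between 2 and 3 was -0.51 rather than -0.99. Above a mean effect of 3 (21 genes) the median interaction was -1.002 with all libraries and 0.30 without vip1-1 high light replicate 1.

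**Figure D5:**
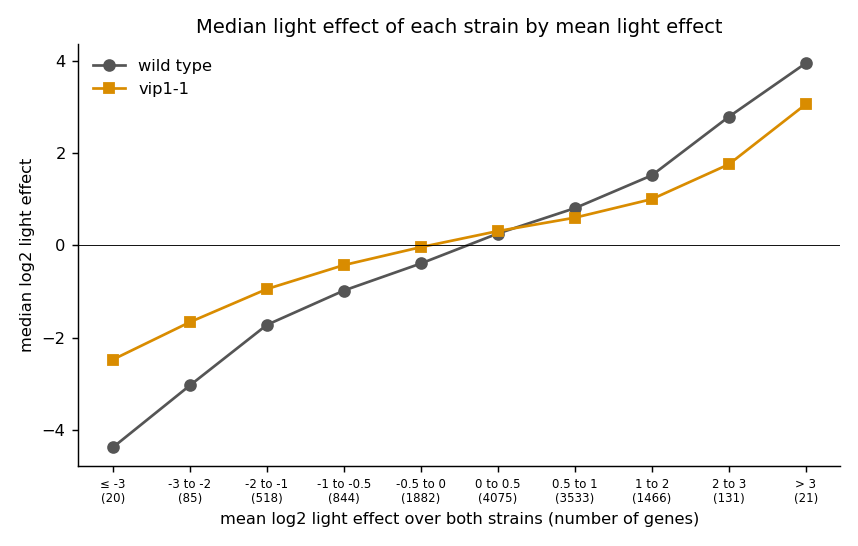
Median log2 light effect in wild type (grey circles) and vip1-1 (orange squares) for genes grouped by their mean light effect over both strains, with the number of genes in brackets. The vip1-1 medians lie nearer 0 in each group except that from 0 to 0.5, for example -0.94 against -1.72 between -2 and -1.

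Transcripts that crossed an FPKM of 1 gave a further description. At least 1 FPKM in every library of the other 3 groups, and under 1 in all wild-type high light libraries, was found in 49 tested genes. Of these, 28 had a called positive interaction, against 3.82% of all tested genes, but the pattern itself favours that sign. The mirror pattern, under 1 in all vip1-1 high light libraries only, was found in 4 genes, none of them called. The second number rested on 1 library: without vip1-1 high light replicate 2 it was 59, against 49 for the wild-type pattern, so the patterns could not be ordered. Leaving out other libraries gave 49 to 70 genes for the wild-type pattern. Expression confined to wild-type high light (under 1 in all 9 other libraries) was found in 107 genes, 31 of them with a called negative interaction, and expression confined to vip1-1 high light in 14 genes, 5 with a called positive interaction. Leaving out single libraries gave 107 to 145 genes and 14 to 21 genes for these. The 107 and 14 genes entered the test only through the 3 libraries that expressed them. Their pattern itself favours a negative interaction for the wild type and a positive one for vip1-1, so the called counts are no separate support. Over all tested genes, 4.89% had a called negative and 3.82% a called positive interaction. With 5 FPKM or more asked on the expressed side, 3 genes were under 1 FPKM only in wild-type high light. Expression confined to wild-type high light was then found in 1 gene, and the matching vip1-1 patterns held 0 genes each. These patterns thus mostly describe crossings of a low threshold. More genes reached 1 FPKM in wild-type high light (11180 to 12194) than in vip1-1 high light (10451 to 11744), with overlap between the groups. In control light the ranges did not overlap, at 11328 to 11798 in the wild type and 10054 to 10222 in vip1-1. Among the vip1-1 high light libraries, replicate 2 had 101 tested genes listed at 0, against 640 and 439 in replicates 1 and 3. The part of these differences in the counts was not tested.

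The share of called genes was higher in each tier of mean expression than in the tier below it, except in the highest tier. It was 6.16% among 2761 genes with a mean FPKM under 2, 8.35% among 2418 genes from 5 to 10, 12.9% among 1082 genes from 30 to 100 and 20.0% among 415 genes from 100 to 1000. The log2(FPKM + 1) scale compresses changes of low genes, and the part of this was not tested. Among the 126 genes with a mean FPKM of at least 1000 the share was 9.52%, and 10 had a positive and 2 a negative interaction, whereas in the tier below 33 were positive and 50 negative.

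About 1 in 10 called genes lay beside a called gene of the same sign. In the order of loci in the RefSeq annotation of assembly v5.5 (strain CC-503), 8307 adjacent pairs had both genes tested. A gene with a positive interaction had at least 1 immediate neighbour with a positive interaction in 39 of 396 cases (9.85%), against 5.67% over all tested genes with a tested neighbour. For negative genes the count was 56 of 507 (11%) against 7.46%. Neighbours of the opposite sign were less frequent than over all genes, without a test, at 5.56% against 7.46% beside positive genes and 4.14% against 5.67% beside negative ones. These genes formed 18 positive runs, 3 of them of 3 genes, and 26 negative runs, 4 of them of 3 genes, and no run was longer. Neighbouring genes can overlap and share reads, and whether counting used the strand is not given in the sources used here.

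A positive run on chromosome 4 showed 3 genes crossing over. Cre04.g222700_4532.v6.1 fell from 1040, 870 and 937 FPKM to 103, 88.1 and 134 in the wild type and from 616, 523 and 518 to 157, 230 and 197 in vip1-1 (interaction 1.62, SE 0.25, limma adjusted p 0.00582). Its neighbour Cre04.g222750_4532.v6.1 went from 93.6, 110 and 114 to 10.4, 5.20 and 15.8 in the wild type and from 71.1, 75.6 and 71.2 to 61.3, 47.6 and 28.4 in vip1-1 (interaction 2.61, SE 0.48, limma adjusted p 0.0109). Cre04.g222800_4532.v6.1 went from 35.8, 36.5 and 33.7 to 9.74, 6.15 and 13.5 in the wild type and from 20.7, 19.7 and 27.2 to 71.5, 27.5 and 30.7 in vip1-1 (interaction 2.60, SE 0.48, limma adjusted p 0.0112). All 3 genes were lower in vip1-1 than in the wild type in every control library and higher in every high light library, and each interaction was called in all 12 fits without a library. The strain difference passed the threshold for all 3 in high light and in control light for the first of them. This run and the next were chosen after their values were seen.

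On chromosome 1, the adjacent genes Cre01.g032600_4532.v6.1, Cre01.g032650_4532.v6.1 and Cre01.g032700_4532.v6.1 had negative interactions of -0.98, -3.20 and -0.78 (limma adjusted p 0.0388, 0.0036 and 0.0408), called in 3, 12 and 2 of the 12 fits without a library. In the wild type they rose by log2 changes of 1.08, 1.32 and 1.21. The middle gene differed from its neighbours in vip1-1, with a log2 change of -1.88 against 0.10 and 0.43. It went from 41.8 ± 10.5 to 105 ± 16.3 FPKM in the wild type (SD, n = 3) and from 118 ± 27.5 to 32.8 ± 14.3 in vip1-1, while the first gene had 86.3 ± 8.24 and 86.1 ± 23.0 FPKM in high light in the wild type and vip1-1.

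Transcripts of the organelle genomes, marked Cp (chloroplast) and Mt (mitochondrion) in their identifiers, gave no call. All 29 tested chloroplast and all 4 tested mitochondrial identifiers had an interaction below 0, with medians of -1.08 and -1.03, against 0.00 over all tested genes. The lowest limma adjusted p values were 0.0819 and 0.0529. Identifiers of the same organelle rose and fell largely together from library to library, so these counts are not independent support. At an unadjusted limma level of 0.05, 3 of the 29 and 2 of the 4 passed, against 3208 of all 12575 tested genes. Summed over the 29 chloroplast identifiers the FPKM of the wild type was 336, 72.9 and 95.2 under control light and 167, 532 and 259 under high light. That of vip1-1 was 70.8, 735 and 110 and then 65.9, 79.0 and 90.5. Replicate 2 of the vip1-1 controls and replicate 1 of the wild-type controls lay far above the others of their group. The chloroplast median was -0.57 without the former and -1.64 without the latter. It was -0.49 with a pseudocount of 5 and -2.12 for identifiers with a mean FPKM of at least 5. The mitochondrial sum was higher in each wild-type high light library (9.47, 12.2 and 11.4) than in wild-type control (3.31, 3.58 and 3.28). The vip1-1 sums were 3.46, 10.2 and 2.11 and, under high light, 4.94, 3.43 and 4.72, so control replicate 2 again lay far above the others of its group. Poly(A) selection captures organelle transcripts poorly, so these levels describe the captured part.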

How the data were processed

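Per the submitters' processing notes, HISAT2 and StringTie were used, with no version or role given. The authors deposited 1 FPKM value per gene and library, and identifiers carry the suffix of annotation release 6.1 of strain CC-4532. Filters and read depth are not given in the sources used here. A search for single-read steps found the commonest between-library ratio of low values (FPKM up to 0.15) in 0.515% to 1.75% of genes over 66 pairs, so depth is unknown and no counting interval is given.

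Values were transformed to log2(FPKM + 1), and limma 3.58.1 (R 4.3.3) was fitted with 4 group means to all 12 libraries, with a variance trend. Tests were two-sided, adjusted over 12575 genes by Benjamini-Hochberg at 0.05. The fit was tested on simulated data. Figures used matplotlib 3.10.9 in Python 3.11.15. The comparison, gene lists and tests were chosen with earlier results of these data known. The rule named the 3 largest interactions of each sign with a group mean of at least 10 FPKM. The 35 gene lists prepared by symbol found 0 members, since the reference holds 0 symbols for its 17742 loci, so they, and promoter motifs, are not used here. Of 17693 identifiers, 15386 shared their locus number with v5.5. FPKM is relative to each library's mapped fragments, whose number is not known here. The FPKM values themselves summed to 741086 to 767459 in the control libraries of both strains. The sums were 651369 to 674168 in wild-type high light and 681002 to 716974 in vip1-1 high light. The part of these differences in the interactions was not tested.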

Additional observations from a re-analysis of the deposited data

Results flagged for a closer look

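The light effect differed between the strains, by the interaction term of limma, in 1095 genes. Each gene named by rule or as a class example was chosen among these and so met the same criterion by construction. The interactions of positive sign were 5.19 for Cre05.g233900_4532.v6.1, 3.69 for Cre06.g309000_4532.v6.1, 3.51 for Cre12.g546600_4532.v6.1, 2.78 for Cre12.g492650_4532.v6.1, 2.44 for Cre07.g335200_4532.v6.1 and 3.45 for Cre02.g088551_4532.v6.1. Those of negative sign were -4.72 for Cre12.g505050_4532.v6.1, -4.45 for Cre17.g802031_4532.v6.1, -4.09 for Cre06.g282800_4532.v6.1, -2.90 for Cre02.g093750_4532.v6.1 and -3.08 for Cre16.g650000_4532.v6.1. No outlier test within groups was run on these values, since each group has 3 libraries.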

How the results depend on the processing

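The number of interaction genes (1095, with 480 positive and 615 negative) was 1855 (939 positive) with array weights, whose estimation stopped before convergence, 244 (104 and 140) at an adjusted p threshold of 0.01, and 638 (296 and 342) with at least 2-fold interactions, the last 2 by construction. The negative genes numbered 952 with a pseudocount of 5 and 398 when libraries were scaled without the top 1000 genes by abundance, and the positive ones 307 at a mean FPKM of at least 5, where fewer genes were tested. The causes of the other moves were not tested. Leaving out each library in turn gave 497 to 1866 genes, 209 to 727 positive and 260 to 1139 negative. The totals were 566, 497 and 528 without wild-type control replicates 1, 2 and 3, and 529, 631 and 534 without those of vip1-1. Without wild-type high light replicates 1, 2 and 3 they were 531, 1866 and 1039, and without those of vip1-1 high light 1184, 700 and 1545. With the replicate number as a replicate block there were 744 genes (405 negative), 726 of them among the 1095 in the same direction. Same-numbered libraries correlated over 0.1 in 4 of 18 pairs, and a library correlated best with its own number in 7 of 36 cases, so the numbers were not taken to pair the samples. Median centring shared 884 calls with the 1095, quantile normalization 894. The named genes kept their direction in all alternatives, and 9 of the 11 passed the threshold in every one. The class examples among them were chosen as genes called in all 12 fits without a library. For these, passing those fits was fixed by the choice. Cre12.g546600_4532.v6.1 did not pass in 11 of 26 and Cre12.g505050_4532.v6.1 in 10 of 25. The response classes and the chloroplast median under each alternative, and the light-effect groups and set shifts relative to the median, were added after seeing the data. The unknown depth limits what can be said of values listed at 0.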

Other observations

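Called genes were spread over all 17 chromosomes given by the identifiers. The share called was 13.4% of 344 tested genes on chromosome 4 and 13.1% of 160 on chromosome 15, 4.91% of 326 on chromosome 5 and 17.3% of 98 genes with identifiers of unplaced sequence, and between 7.31% and 9.86% on the other chromosomes. Gene models without a locus of the same number in v5.5 gave 44 positive and 52 negative calls among 970 (9.90%), against 436 and 563 among 11605 (8.61%) for the others. An isolated value of 0, in 1 library of a group whose other libraries were at 1 FPKM or more, occurred in 402 tested genes (3.20%) and in 2 of the 1095 called genes (0.183%). The test uses the spread within groups, which an isolated 0 widens, so the lower share among called genes is partly built into the calls.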
